A study of Mus musculus with 6 samples.

Results

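The genes described here are 32 genes of cholesterol synthesis, of its control by the sterol regulatory element binding proteins (SREBPs), of sterol handling inside the cell and of oxysterol formation. They were taken by gene symbol from the authors' deposited table of 48526 mouse genes, of which 20101 had an adjusted p-value. All 32 were found and all 32 had an adjusted p-value. By role they are 7 enzymes of the mevalonate steps, 11 enzymes from squalene to cholesterol, 5 genes of SREBP control, 5 genes of sterol handling and storage, and 4 oxysterol enzymes.

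The cells were oligodendrocyte precursor cells (OPCs), proliferating glia from which the myelinating oligodendrocytes develop, sorted from the forebrain of mice at postnatal day 6 after removal of the meninges. The study has 3 ctrl replicates and 3 Ep400 cko replicates, and the mice of both groups had a mixed 129SvJ/C57Bl/6J background. Every animal carried CNP1::Cre, a Cre recombinase driven by the oligodendroglial gene Cnp, and a conditional Rosa26stopflox-YFP reporter, and the Ep400 cko animals also carried conditional Ep400, the gene of a chromatin-remodelling ATPase. The sort used YFP and the DNA dye Hoechst, so a cell was taken for its reporter and not for a surface marker of OPCs. The comparison addresses how OPCs differ with Ep400 deleted, and the ctrl genotype in the labels names no Ep400 allele.

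Cholesterol is built from acetyl-CoA through mevalonate, farnesyl diphosphate, squalene and lanosterol, and the brain makes nearly all of its own because lipoproteins of the blood do not cross the blood-brain barrier. Myelin membranes are rich in cholesterol, and both oligodendrocytes and astrocytes synthesise it. SREBPs are transcription factors held in the endoplasmic reticulum by Insig proteins while sterol is plentiful, and escorted by Scap to the Golgi, where they are cut and released, when sterol is scarce. Oxysterols, made from cholesterol by hydroxylases, leave the brain more easily than cholesterol, hold back SREBP release and activate the liver X receptors (LXRs).

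The deposited table gave 1 value per gene for the comparison and none per library, so levels are means over all 6 libraries in normalised reads. Added up, the means come to 80407433 normalised reads per library. Scale factors of the libraries, obtained from genes with a single read, lay between 0.967 and 1.122. Ep400 stood at a log2 fold change of 0.01 ± 0.17 (SE; adjusted p = 0.97) in the authors' deposited table, a value over the whole gene that does not resolve a deleted exon and so checks neither the deletion nor the direction. All 12 OPC markers were detected, with means from 3578 to 352288 normalised reads, but so were markers of other cells, with a mean of 318172 for the astrocyte glutamate transporter gene Slc1a3 and 129373 for the microglial receptor gene Csf1r. Of 16 astrocyte markers 11 were higher and none lower in Ep400 cko, with a median log2 fold change of 1.04. Of 12 mural and fibroblast markers 10 were lower (median -0.96), of 12 microglia and macrophage markers 3 were lower (median -0.44), and of 12 markers of committed and myelinating oligodendrocytes 1 was lower (median -0.83). Fewer cells of a type and less RNA per cell cannot be told apart in such bulk samples, and the part of these cell types in the results below was not tested. The libraries were also uneven within a group for the myelin gene Opalin, with 15, 30 and 149 recovered reads in ctrl and 4, 16 and 21 in Ep400 cko. Between the groups Ermn, from the same marker list, went the other way, with 2, 0 and 82 recovered reads in ctrl and 78, 61 and 43 in Ep400 cko. The libraries are in the same order for both genes, so the 149 reads of Opalin and the 82 of Ermn lay in the same ctrl library.

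Of the 18 cholesterol synthesis enzymes 6 were higher in Ep400 cko and 12 did not pass. The SREBP genes Srebf1 and Srebf2, the handling genes Npc1 and Soat1 and the oxysterol enzymes Cyp7b1 and Cyp46a1 were higher, and the oxysterol enzymes Ch25h and Cyp27a1 were lower. At an adjusted p under 0.05 in the authors' deposited table, 12 of the 32 genes were higher, 2 were lower and 18 did not pass. Among all tested genes 7.64% were higher and 4.61% lower, against 37.5% and 6.25% of these 32. The median log2 fold change of the 32 was 0.49, where all tested genes had a median of -0.0025, and 26 of 32 had a positive value. Leaving aside Ch25h, the genes had means from 827 to 53686 normalised reads, and among the 10828 tested genes in that range 8.27% were higher and 4.86% lower. Under no filter on low genes, a mean of at least 80, the median set to 0 and the trend in length and GC content removed, 11, 18, 16 and 11 of the 32 passed in either direction, against 7.35%, 15.9%, 12.3% and 10.4% of the genes tested there (12.2% in the deposited test). A further 5 genes lay just past the threshold, with adjusted p-values from 0.051 to 0.055: Idi1, Tm7sf2, Lss, Insig1 and Nsdhl, all with positive fold changes. Fold changes in the deposited table are moderated towards 0, so they understate the ratio of low or variable genes.

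**Figure D1:**
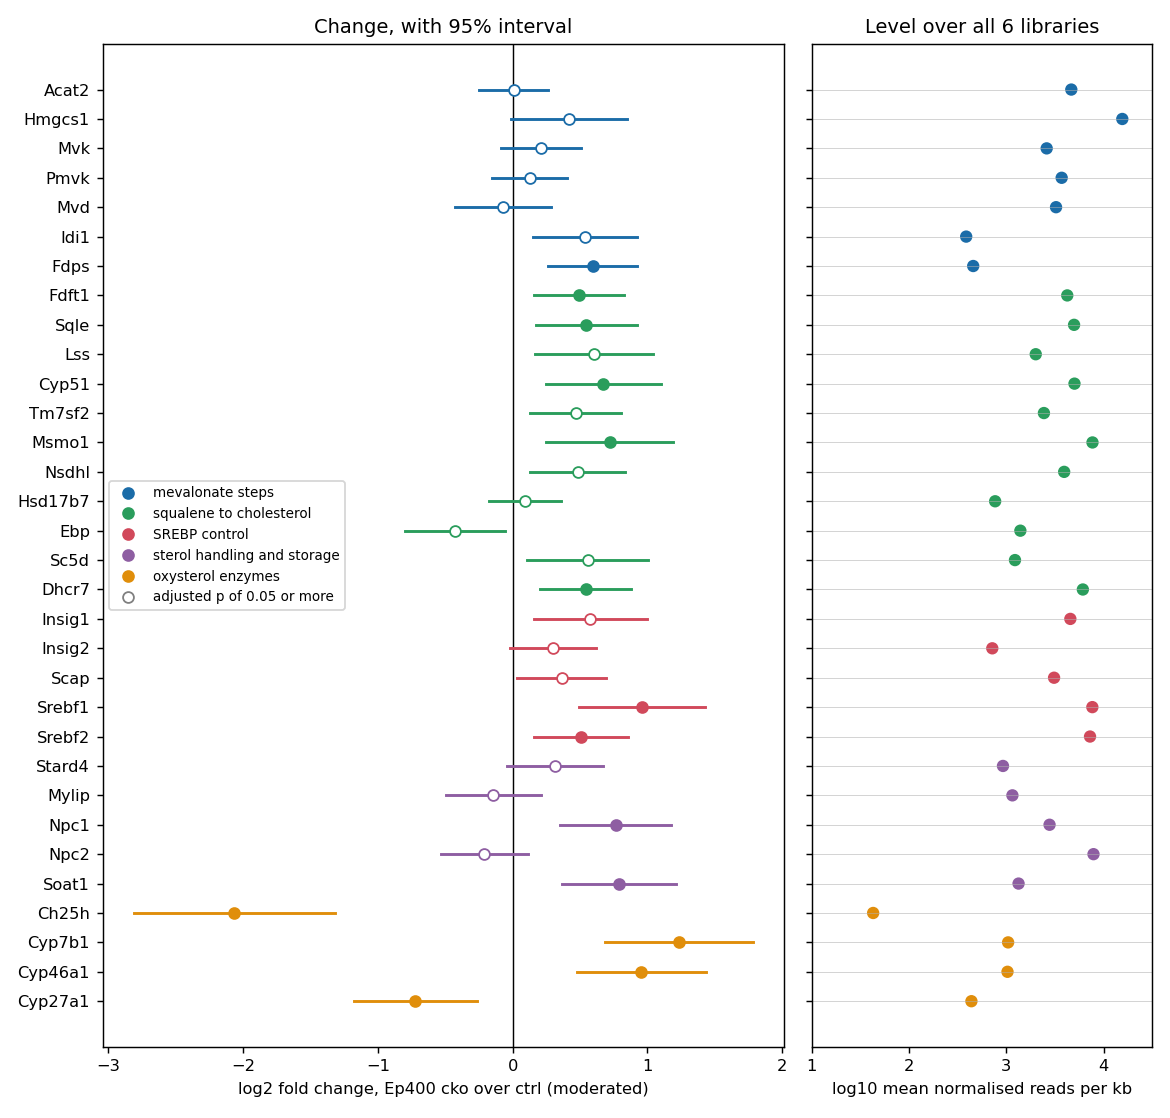
Log2 fold change of the 32 genes in pathway order with 95% intervals (left; filled points have an adjusted p under 0.05) and log10 mean normalised reads per kb of the longest transcript (right), coloured by role. The enzymes from Fdps to Msmo1 sit between 0.47 and 0.72, the first 5 steps nearer to 0, and the 4 oxysterol enzymes at both ends of the scale.

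The mevalonate steps come first. None of the first 5 genes passed, and Fdps, the last, rose. Hmgcs1 (chr13:119690379-119708260, plus strand, mm10) encodes the cytosolic synthase that makes 3-hydroxy-3-methylglutaryl-CoA. Per kb of longest transcript, it had the highest level of all 32 genes, at 15498 normalised reads per kb, or percentile 99.0 of the tested genes. Its log2 fold change of 0.42 ± 0.22 (SE; 95% interval -0.01 to 0.85) did not pass according to the authors' deposited table (adjusted p = 0.21). Acat2, a thiolase that joins acetyl-CoA units, stood at 0.01 ± 0.13 there (adjusted p = 0.98), with an interval of -0.25 to 0.26. The kinases Mvk and Pmvk, which phosphorylate mevalonate in turn, had values of 0.21 ± 0.15 and 0.13 ± 0.14 in the authors' deposited table. Mvd, the decarboxylase that yields isopentenyl diphosphate, stood at -0.07 ± 0.18 there. For these 5 genes of the upper pathway no difference passed, and the intervals of Acat2, Mvk, Pmvk and Mvd end below 0.51.

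The last of the mevalonate steps lay higher. Idi1, the isomerase of isopentenyl diphosphate, had a log2 fold change of 0.53 ± 0.20 in the authors' deposited table and missed the threshold (adjusted p = 0.051). Fdps, which makes farnesyl diphosphate at the branch to sterols, dolichol and protein prenylation, rose by 0.60 ± 0.17 (adjusted p = 0.0078) in the same table. It was the 1 gene of 7 in these steps that passed, where Idi1 passed too with a mean of at least 80 or with the median set to 0 (2 of 7). As counted, both had low levels for this pathway, at 386 and 456 normalised reads per kb, where the other 5 lay between 2592 and 15498. Both share sequence with other genes, as given below, and whether reads were lost from their counts was not tested.

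Counting is uncertain for some of these genes. Acat2 shares 1477 bases of its longest transcript, at up to 97.7% identity, with its paralogue Acat3, which rose by 1.05 ± 0.20 according to the authors' deposited table (adjusted p = 2.6e-05) at a mean of 846 normalised reads. Idi1 shares 684 bases with the processed pseudogene Gm13502 at up to 100% identity. Fdft1 shares 1248 bases, or 33.8% of its longest transcript, with the processed pseudogene Gm6781 at up to 97.4% identity, and Gm6781 had a mean of 8.05 normalised reads. Msmo1 shares a stretch of 199 to 203 bases with each of 10 other genes. Fdps shares 1124 exonic bases on its own strand with Gm43738 in GENCODE M21, whose mean was 0.172 normalised reads. The authors' handling of reads that fit both copies is not stated in the sources used here. The low mean of Gm43738 therefore does not tell whether shared reads were counted for Fdps or dropped.

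From squalene to cholesterol, 5 of 11 enzymes were higher, none was lower and 6 did not pass, with a median log2 fold change of 0.54. The number higher was 3 with no filter on low genes and 8 with a mean of at least 80. Fdft1, the squalene synthase that commits the pathway to sterols, rose by 0.49 ± 0.17 according to the authors' deposited table (adjusted p = 0.037). Sqle, the epoxidase that controls flux from squalene, rose by 0.55 ± 0.19 there (adjusted p = 0.037). Neither passed without the filter on low genes (adjusted p = 0.052 and 0.053), nor did Sqle with the trend in length and GC content removed (adjusted p = 0.072, at a fold change of 0.49). Lss, which closes the rings to give lanosterol, stood at 0.60 ± 0.22 there and did not pass (adjusted p = 0.055). Fdft1 overlaps 774 exonic bases of the cathepsin gene Ctsb on the opposite strand, and Ctsb had a mean of 191673 normalised reads and a log2 fold change of -0.20 ± 0.17 in the authors' deposited table. Whether the counting used strand is not stated in the sources used here, so reads of that stretch cannot be assigned. Exons of Hmgcs1, Idi1, Lss, Cyp51, Scap, Srebf1 and Npc1 also overlap a gene on the opposite strand, by 109 to 985 bases at the largest overlap of each, and Tm7sf2 shares 532 exonic bases with Vps51 on its own strand.

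The enzymes that trim lanosterol held the largest values of synthesis. Cyp51, the demethylase that acts first on lanosterol, rose by 0.67 ± 0.22 (adjusted p = 0.023) and Msmo1, a methylsterol oxidase, by 0.72 ± 0.24 (adjusted p = 0.029) by the authors' deposited table. The interval of Msmo1 ran from 0.25 to 1.19, and that of Cyp51 from 0.25 to 1.10, so the table does not order them against each other or against Fdft1 and Sqle. Tm7sf2, a sterol reductase, and Nsdhl, a dehydrogenase that works with Msmo1, had values of 0.47 ± 0.17 and 0.48 ± 0.18 in the authors' deposited table and missed the threshold (adjusted p = 0.054 and 0.055). Hsd17b7, the ketoreductase of the same demethylating complex, stood at 0.09 ± 0.14 there, with an interval of -0.17 to 0.36 (adjusted p = 0.72).

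In the closing steps 1 gene passed. Dhcr7, the reductase of 7-dehydrocholesterol, rose by 0.54 ± 0.17 (adjusted p = 0.019) in the authors' deposited table. Sc5d, the desaturase just before it, stood at 0.56 ± 0.23 there and did not pass (adjusted p = 0.091). Ebp, the isomerase upstream of both, had the lowest value of the 18 synthesis enzymes, at -0.43 ± 0.19 with an interval of -0.80 to -0.06, and did not pass after adjustment over all tested genes (adjusted p = 0.12). Over the 18 enzymes of synthesis 6 were higher and none lower, with 16 positive values.

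Several of these genes share SREBP as a known regulator, and SREBPs bind promoters together with the CCAAT-binding factor NF-Y, so their promoter sequences are shown. RefSeq promoters on GRCm38.p6, from 250 bases before to 50 after the start, were found for 26 of the 32 genes. None was found by symbol for Fdps, Fdft1, Sqle, Stard4, Npc1 and Cyp7b1, all of which rose except Stard4, so the motif counts leave them out. The sterol element form TCACNCCAC and the NF-Y letters CCAAT were searched on both strands. Each sequence below reads 5′ to 3′ on the strand of its gene with matches in capitals, where ATTGG is CCAAT on the other strand. Hmgcs1 is shown as the gene with a sterol element match, Msmo1 as the highest of the synthesis enzymes, Srebf2 as the regulator, and Ch25h as the gene that fell most.
Hmgcs1, chr13:119690101-119690400, plus strand: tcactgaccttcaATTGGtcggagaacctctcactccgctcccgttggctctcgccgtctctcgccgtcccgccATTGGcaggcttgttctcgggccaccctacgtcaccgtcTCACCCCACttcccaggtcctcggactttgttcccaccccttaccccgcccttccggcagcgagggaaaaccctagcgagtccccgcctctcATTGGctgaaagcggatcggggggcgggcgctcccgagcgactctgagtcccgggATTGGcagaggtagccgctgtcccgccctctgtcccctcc
Msmo1, chr8:64733529-64733828, minus strand: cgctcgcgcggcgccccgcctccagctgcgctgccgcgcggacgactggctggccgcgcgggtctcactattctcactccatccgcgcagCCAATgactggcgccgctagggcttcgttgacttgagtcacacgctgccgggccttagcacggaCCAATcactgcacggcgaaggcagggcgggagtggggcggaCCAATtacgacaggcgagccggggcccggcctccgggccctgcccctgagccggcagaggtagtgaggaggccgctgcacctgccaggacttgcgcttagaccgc
Srebf2, chr15:82147019-82147318, plus strand: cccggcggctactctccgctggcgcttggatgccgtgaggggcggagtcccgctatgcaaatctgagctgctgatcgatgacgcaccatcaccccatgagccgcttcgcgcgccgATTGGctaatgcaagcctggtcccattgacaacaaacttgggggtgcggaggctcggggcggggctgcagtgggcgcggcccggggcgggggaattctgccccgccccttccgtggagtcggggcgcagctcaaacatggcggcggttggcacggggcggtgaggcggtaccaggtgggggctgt
Ch25h, chr19:34475099-34475398, minus strand: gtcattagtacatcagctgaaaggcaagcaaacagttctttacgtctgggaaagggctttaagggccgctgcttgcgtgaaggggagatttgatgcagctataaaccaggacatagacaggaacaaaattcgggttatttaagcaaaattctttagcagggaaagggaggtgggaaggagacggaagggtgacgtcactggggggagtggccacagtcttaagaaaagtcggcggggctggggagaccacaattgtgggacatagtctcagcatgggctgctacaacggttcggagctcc

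The Hmgcs1 promoter held 1 sterol element match, TCACCCCAC, whose first base lay 137 bases before the start, and 4 NF-Y matches. Msmo1 held 3 NF-Y matches, 160, 96 and 55 bases before the start, Srebf2 held 1 at 135 bases, and Ch25h held neither motif. CCAAT stood in at least 1 promoter of 23 of the 26 genes (88.5%), against 41.9% of the 13198 tested genes with a promoter in the same table. Of the 7 genes with a promoter that rose, all 7 had it, as did 15 of the 17 that did not pass and 1 of the 2 that fell. The sterol element form stood in 1 of the 26 genes (3.85%) against 1.46% of the tested genes, and in 1.24% of all 32851 promoters, where CCAAT stood in 37.4%. Only exact matches were counted, so a variant such as tcaccccat in the Srebf2 promoter, which differs in its last base, was not. A gene without a match may thus still hold a sterol element of another form. A match is a description of letters in this window, and nothing about binding was measured.

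SREBP control was examined next. Of its 5 genes 2 were higher, none was lower and 3 missed the threshold in the authors' deposited table, and all 5 values were positive with a median of 0.51. Srebf1 (chr11:60199089-60222581, minus strand, mm10), which encodes the SREBP of fatty acid and sterol genes, rose by 0.96 ± 0.24 (adjusted p = 0.0017) in that table, which is a ratio of 1.95 on the moderated scale. Srebf2, which encodes the SREBP of cholesterol genes, rose by 0.51 ± 0.18 (adjusted p = 0.041) in the same table, but its adjusted p was 0.058 without the filter on low genes, which left 1 of the 5 genes higher. Both were abundant, at 7632 and 7224 normalised reads per kb, close to the level of Msmo1 at 7658. The anchor genes differed in level by several fold per kb, with 4536 normalised reads for Insig1 and 716 for Insig2. Insig1, itself a known SREBP target, stood at 0.57 ± 0.21 and missed the threshold (adjusted p = 0.055), and Insig2 stood at 0.30 ± 0.16 according to the authors' deposited table (adjusted p = 0.23). The escort gene Scap stood at 0.36 ± 0.17 there, with an interval of 0.03 to 0.70, and did not pass (adjusted p = 0.14). Astrocyte markers moved in the same direction at a median of 1.04, and their part in these values was not tested.

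**Figure D2:**
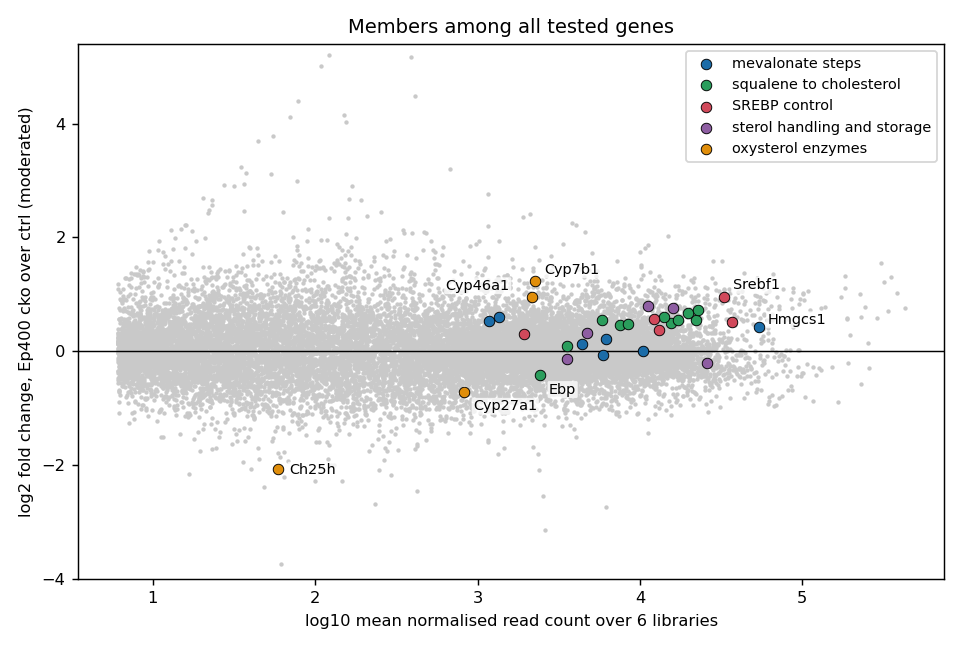
Each tested gene by its log10 mean normalised read count over the 6 libraries (x axis) and its moderated log2 fold change (y axis), with the 32 genes coloured by role over all tested genes in grey. Apart from Ch25h, at a mean of 59.3, the genes lie at means from 827 (Cyp27a1, percentile 45.5 of the tested genes) to 53686 (Hmgcs1). Most sit above 0 within the cloud of other genes.

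Of the 5 genes of sterol handling and storage 2 were higher and 3 did not pass. Npc1, the membrane protein that exports cholesterol from lysosomes, rose by 0.76 ± 0.21 according to the authors' deposited table (adjusted p = 0.0058). Npc2, the soluble lysosomal protein that hands cholesterol to Npc1, stood at -0.21 ± 0.16 there, with an interval of -0.53 to 0.11 (adjusted p = 0.45). The interval of Npc1, 0.35 to 1.17, lies above that of Npc2, although the difference between the genes was not tested. Soat1, which esterifies cholesterol for storage, rose by 0.79 ± 0.22 according to the authors' deposited table (adjusted p = 0.0054), but with the trend in transcript length and GC content removed it no longer passed (adjusted p = 0.081), at a fold change of 0.55, which left 1 of the 5 genes higher. Its paralogue Soat2 was nearly absent, at a mean of 19.8 normalised reads against 11157 for Soat1. The recovered reads of Soat2 were 24, 5 and 14 in ctrl and 24, 20 and 32 in Ep400 cko, and these groups overlap. Whether that set of reads is a chance match was not tested. Stard4, a soluble sterol carrier, stood at 0.31 ± 0.18 (adjusted p = 0.27) and Mylip, a ubiquitin ligase that removes lipoprotein receptors and is a known LXR target, at -0.14 ± 0.18 (adjusted p = 0.67) in the authors' deposited table.

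All 4 oxysterol enzymes passed, in opposite directions, and they held both the highest and the lowest fold change of the 32 genes. Ch25h (chr19:34473778-34475164, minus strand, mm10), the cholesterol hydroxylase best known from macrophages, was the lowest of the 32 in level, at 42.8 normalised reads per kb. Its mean is low enough to be resolved into whole reads per library, which were 63, 161 and 95 for ctrl and 11, 18 and 10 for Ep400 cko. This was the 1 set of reads that gave the deposited mean, but 30 slightly shifted means gave 4 solutions in all, so it may be a chance match. In it all 3 ctrl libraries lay above all 3 Ep400 cko libraries, and the ctrl libraries varied more among themselves. In normalised reads the groups had 105 ± 53.4 (SD, n = 3) for ctrl and 13.3 ± 4.41 (SD, n = 3) for Ep400 cko, which is 7.92-fold lower in Ep400 cko. A two-sided exact permutation test over the 6 libraries gave p = 0.1, the smallest that 3 against 3 allow. In the authors' deposited table the moderated log2 fold change was -2.07 ± 0.38 (SE; adjusted p = 8e-06), smaller in size than the -2.99 of the ratio of these means. Of 12 microglia and macrophage markers 3 were lower at a list median of -0.44, and of 12 mural and fibroblast markers 10 were lower at a median of -0.96, and the part of either in the value of Ch25h was not tested. Gm26902, a transcript that overlaps 159 exonic bases of Ch25h on the opposite strand, had 18, 5 and 11 recovered reads in ctrl and 2, 3 and 8 in Ep400 cko, and its groups overlap.

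**Figure D3:**
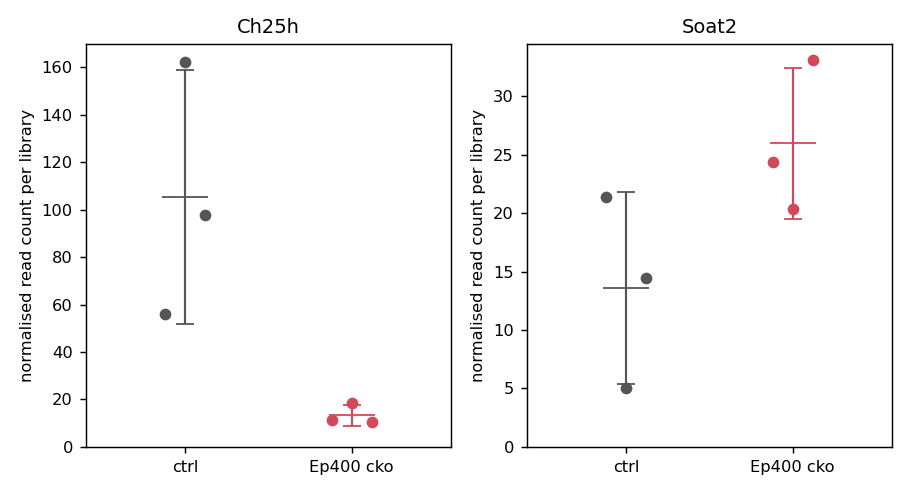
Normalised read count in each of the 6 libraries (points) for Ch25h and for Soat2, the paralogue of Soat1, with group mean and SD (n = 3). For Ch25h the ctrl libraries lie at 56.2, 97.8 and 162 and the Ep400 cko libraries at 10.3, 11.2 and 18.4, and for Soat2 the groups overlap.

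Cyp7b1 (chr3:18071950-18243338, minus strand, mm10), which adds a hydroxyl group to oxysterols and so leads to their breakdown, rose by 1.23 ± 0.28 according to the authors' deposited table (adjusted p = 0.00055), the highest fold change of the 32. Its mean was 2255 normalised reads, about that of Cyp46a1 at 2173. Cyp46a1, the brain cholesterol hydroxylase known mainly from neurons, rose by 0.95 ± 0.24 (adjusted p = 0.0025) in the same table. Of 12 neuron markers 4 were higher and none lower, with a median of 0.27, and their part in the value of Cyp46a1 was not tested. Cyp27a1, the mitochondrial sterol hydroxylase, fell by 0.72 ± 0.23 (adjusted p = 0.022) in that table, but with the trend in transcript length and GC content removed it no longer passed (adjusted p = 0.059), at a fold change of -0.63. Per kb, Cyp7b1 and Cyp46a1 stood at 1041 and 1026 normalised reads and Cyp27a1 at 437.

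The wider pathway was followed in a list of 42 further genes of SREBP cleavage and sterol sensing, LXRs and their transporters, sterol esters and transport, isoprenoid branches, sterol and bile acid enzymes, and fatty acid genes known as targets of SREBP1. Of the 42, 9 were higher, 1 was lower and 32 did not pass in the authors' deposited table, or 21.4% and 2.38% against 7.64% and 4.61% of all tested genes. The fatty acid genes had 5 of 10 higher, none lower and all 10 values positive at a median of 0.47. Among them the desaturase genes Scd2, Scd1 and Fads2 rose by 1.02 ± 0.26, 1.08 ± 0.29 and 0.88 ± 0.24 according to the authors' deposited table (adjusted p = 0.0021, 0.0045 and 0.0041). Scd2 was very abundant, at 379593 normalised reads.

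The other sets were read in the same way. None of the 7 isoprenoid branch genes, which draw on the product of Fdps or its precursor for prenyl chains, passed, and their values ran from -0.33 to 0.26. Of the 5 genes of LXRs and their transporters 2 were higher. Abca1, the cholesterol exporter that is a classic LXR target, rose by 0.86 ± 0.25 according to the authors' deposited table (adjusted p = 0.011) and did not pass with the trend in length and GC content removed (adjusted p = 0.16, at a fold change of 0.54). Abcg1, another transporter gene of this set, went the other way without passing, with -0.20 ± 0.17 (adjusted p = 0.50) in the deposited test. The LXR genes Nr1h2 and Nr1h3 stood at -0.04 ± 0.13 and -0.26 ± 0.21 there. Of the 8 genes of sterol esters and transport, Gramd1b, a carrier of sterol from the plasma membrane to the endoplasmic reticulum, rose by 0.58 ± 0.15 (adjusted p = 0.0044) in the same table and the other 7 did not pass. Among the 7 genes of SREBP cleavage and sterol sensing 1 was higher, and the genes of both SREBP proteases, Mbtps1 and Mbtps2, had values of -0.04 ± 0.12 and 0.17 ± 0.19 in the authors' deposited table.

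Gpr183, a receptor for oxysterols made by Ch25h and Cyp7b1 in turn, fell by 0.81 ± 0.21 according to the authors' deposited table (adjusted p = 0.0030) at a mean of 1931 normalised reads. It is known from immune cells, and the microglia and macrophage markers stood at a median of -0.44. The bile acid enzyme genes Hsd3b7 and Cyp39a1 stood at 0.11 ± 0.26 and 0.11 ± 0.30 there, with adjusted p-values of 0.84 and 0.86.

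**Figure D4:**
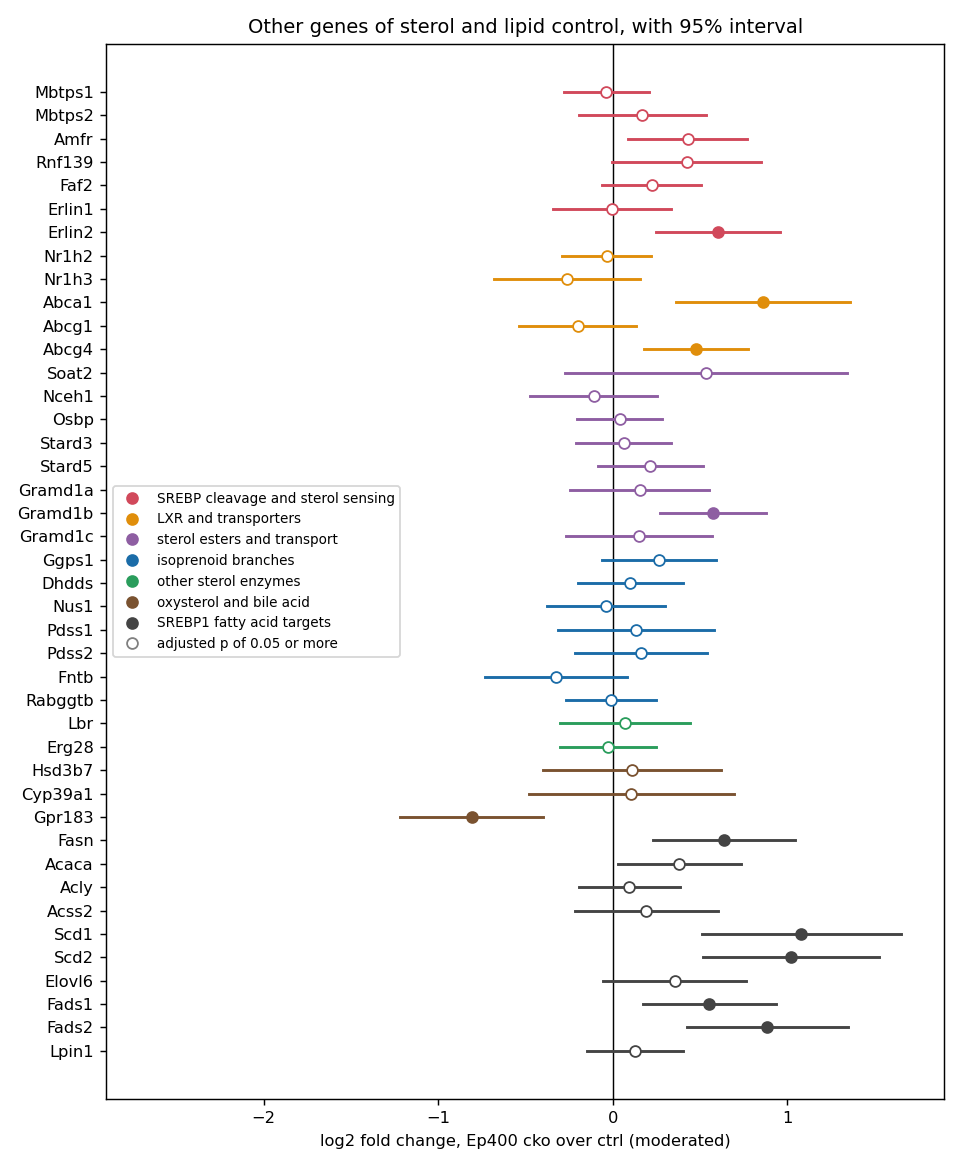
Log2 fold change with 95% interval for 42 further genes of sterol and lipid control, coloured by set, with filled points for an adjusted p under 0.05. The fatty acid genes at the bottom all lie above 0, the isoprenoid branch genes lie around 0, and Gpr183 is the 1 gene that passed below 0.

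The 32 genes were also set beside the markers of the cell types such a sort can hold. Outside the oxysterol enzymes the 28 genes ran from -0.43 to 0.96, where astrocyte markers ran from -0.57 to 2.03 and mural and fibroblast markers from -1.50 to -0.31. The medians of 0.21 for mevalonate steps, 0.54 for squalene to cholesterol, 0.51 for SREBP control and 0.31 for handling and storage lay between those of the OPC markers (-0.37) and the astrocyte markers (1.04). That span is wide and sets these roles apart from little. It also holds the medians of all tested genes (-0.0025) and of the neuron (0.27), endothelial (-0.35) and red blood cell markers (0.98). The OPC list held 2 genes that rose and 2 that fell among 12, and its most abundant gene, Ptprz1, rose by 1.30 ± 0.31 by the authors' deposited table. Among other cell types the most abundant markers of myelinating cells, neurons, endothelium, mural cells and choroid plexus, namely Mbp at -0.89 ± 0.41, Map2 at 0.21 ± 0.12, Slc2a1 at 0.42 ± 0.20, Rgs5 at -0.68 ± 0.25 and Ttr at 0.92 ± 0.41, did not pass in the authors' deposited table. Of 10 endothelial markers 2 were lower (median -0.35), of 8 ependymal and choroid plexus markers 4 were lower (median -0.83), and of 5 tested red blood cell markers, led by Hbb-bs at 0.95 ± 0.35, 4 were higher (median 0.98).

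**Figure D5:**
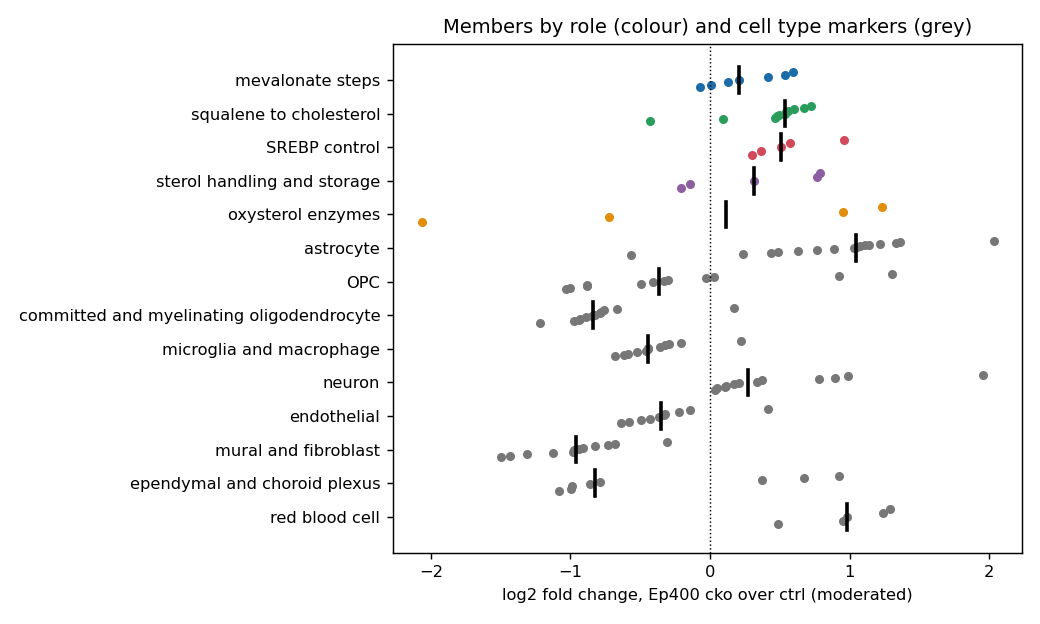
Log2 fold change of each gene (points) and the median (black bar) for the 5 roles in colour and for 9 cell type marker lists in grey. The medians of the mevalonate, sterol and SREBP groups lie to the right of 0 and left of the astrocyte median of 1.04, with Ebp and Mvd left of 0, and the oxysterol enzymes spread from -2.07 to 1.23.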

How the data were processed

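The deposited file is the authors' own comparison of 3 ctrl and 3 Ep400 cko libraries. It uses Ensembl 85 identifiers, per the file headers, and has no column for a single sample. Reads had been processed with STAR 2.5.1, HTSeq and DESeq2 on mm10, named without order by the submitters' processing notes. The library kit was a stranded one for mRNA, per the labels' protocols. For each gene the authors deposited a mean signal, which is a normalised read count over the 6 libraries. They also deposited a log2 fold change with its standard error on the log2 scale, a Wald score, and a p-value with its Benjamini-Hochberg adjusted p-value. These could be recomputed from each other within 9.2e-14. Only the name of the file gives the direction, cko relative to ctrl. The main result is the authors' test at an adjusted p under 0.05. Its p-values are Wald p-values for the difference between the groups, and the spread between these samples enters through the standard error.

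The planned rule named all members, up to 6 passing genes of the wider list with the smallest adjusted p, the most abundant marker of each cell type list, and Ep400. Not every gene of the pathway is reported here. Acat3, Tcp1, Ctsb, Opalin, Ermn, Soat2, Abcg1, Nr1h2, Nr1h3, Mbtps1, Mbtps2, Hsd3b7, Cyp39a1, Lcat, Osbpl6 and the overlapping transcripts lie outside it and were picked once their values had been seen. The members and lists were chosen with earlier results of these data known.

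Levels per kb use the longest transcript of GENCODE M21 (GRCm38, the mm10 assembly). Copies were searched with blastn 2.17.0 at 95% identity over at least 200 bases. Of the 42 wider genes 41 were matched by symbol and 1 by its identifier. Alternatives were no filter on the mean, a mean of at least 80, the median of genes set to 0, and spline trends of the Wald score on length and GC content removed (patsy, 6 degrees of freedom each), available for 99.6% of tested genes. The steps were tested on simulated data.

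Whole reads per library were solved for genes with a mean under 60. Each mean adds up, over the 6 libraries, the whole reads weighted by the value of a single read there, and those values come from genes with 1 read in all. Genes read in a single library take its group from the direction of their deposited fold change, and which replicate it is cannot be told. The mean of Ch25h had 1 solution within 8e-14, and only for this gene were shifted means tried. For Soat2, Opalin, Ermn and Gm26902 a chance match was thus not tested. The 30 slightly shifted means gave 4 solutions in all, and in 0 of these did every ctrl library exceed every Ep400 cko library. So few solutions cannot tell whether the reads of Ch25h are a chance match.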

Additional observations from a re-analysis of the deposited data

How the results depend on the processing

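The number of the 32 genes that passed was 14 and lay between 11 and 18 in the 4 alternatives, with all called directions as in the deposited test. With no filter on low genes Fdft1, Sqle and Srebf2 no longer passed (adjusted p = 0.052, 0.053 and 0.058). With a mean of at least 80, Idi1, Lss, Tm7sf2, Nsdhl and Insig1 passed as well and Ch25h was left out by construction. With the median of genes set to 0, a shift of 0.0074, Idi1 and Tm7sf2 passed too. With the length and GC trend removed Sqle, Soat1 and Cyp27a1 did not pass (adjusted p = 0.072, 0.081 and 0.059), and Mvd, at -0.07, turned to 0.035. The cause was not tested. In the wider list 10 genes passed, and 8 to 10 in the alternatives. No paired analysis was possible because the file holds no values per sample, and for the same reason no replicate could be left out and no count model was run.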

Other observations

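Some sterol genes outside the lists above were looked at after their values were seen. The oxysterol-binding protein family, which carries sterols and other lipids between membranes, had 10 tested Osbpl genes, of which none passed in the authors' deposited table, with values from -0.46 to 0.57 and a median of 0.00. Osbpl6 came nearest, at 0.57 ± 0.21 (adjusted p = 0.051). Lcat, which esterifies cholesterol on lipoproteins, rose by 0.90 ± 0.25 (adjusted p = 0.0053) in the same table.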
